A study of Mus musculus with 57 samples.

Results

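NANOG binding was compared between 2 h and 4 h after GATA6 induction in mouse embryonic stem (ES) cells. The comparison used 4 samples, namely the 2 NANOG peak lists of each time point, out of 57 samples in the series, of which 30 had a peak list here. The assay was CUT&RUN, in which an antibody brings a nuclease to a chromatin-bound protein and the released DNA is sequenced. All 4 samples came from the KH2 ES line of strain C57BL/6, which carries a doxycycline (Dox)-responsive GATA6 transgene together with the red reporter DsRed2 (labelled TRE:GATA6-DSREd2). Each library was made from 100000 cells, and cells of both time points stood in serum medium with LIF and 1 ug/mL Dox, so that only the hours of induction set them apart by the labels. Earlier samples at 0 h were in maintenance medium without Dox. Nothing in the labels says whether the replicates were separate cultures. The study's reporting summary states that replicate experiments were done independently but does not name separate cultures, so the spread between lists may be technical. A region was a merged stretch of DNA that held a peak in both lists of a time point, which gave 19090 regions at 2 h and 6910 at 4 h, 20081 distinct regions in all.

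NANOG is a homeodomain transcription factor (TF) that upholds the epiblast (Epi) state, which ES cells resemble. GATA6 is a zinc-finger TF that drives the alternative primitive endoderm (PrE) fate and recognizes short GATA words in DNA. Both factors are present together in the inner cell mass before the fates part, and SOX2, which binds DNA with OCT4, works with NANOG at many pluripotency enhancers.

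A 2 h region was called kept when it met a 4 h region by at least 1 bp, and lost otherwise. A 4 h region that met no 2 h region was called gained. The sequences below show examples of the classes around the summit of their peaks, with 75 bp on each side, from RefSeq's GRCm38.p6 (mm10), plus strand. The strongest region of each class and some of the regions near genes discussed later are given. Capitals mark GATA words (the word AGATAA, the word AGATAG, the word TGATAA and the word TGATAG), the SOX word CATTGT and the octamer ATGCAAAT, on either strand.
Kept, near Mrps23, chr11:88202183-88202333: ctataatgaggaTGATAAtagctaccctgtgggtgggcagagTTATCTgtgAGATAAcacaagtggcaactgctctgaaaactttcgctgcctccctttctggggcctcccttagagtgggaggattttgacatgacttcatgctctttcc
Kept, near Lamc1, chr1:153376840-153376990: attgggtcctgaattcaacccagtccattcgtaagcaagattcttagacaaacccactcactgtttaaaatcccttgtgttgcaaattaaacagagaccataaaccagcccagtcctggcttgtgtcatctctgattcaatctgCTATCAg
Lost, in Foxp1, chr6:99013976-99014126: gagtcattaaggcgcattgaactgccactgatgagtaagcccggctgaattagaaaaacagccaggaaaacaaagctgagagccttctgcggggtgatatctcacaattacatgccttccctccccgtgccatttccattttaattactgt
Lost, near the start of Otx2, chr14:48662942-48663092: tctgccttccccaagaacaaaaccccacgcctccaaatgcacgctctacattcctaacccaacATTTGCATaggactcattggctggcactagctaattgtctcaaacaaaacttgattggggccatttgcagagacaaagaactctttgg
Lost, near Esrrb, chr12:86398827-86398977: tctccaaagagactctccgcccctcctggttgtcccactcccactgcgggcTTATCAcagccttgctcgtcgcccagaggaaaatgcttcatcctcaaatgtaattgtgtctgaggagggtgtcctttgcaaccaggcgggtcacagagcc
Gained, in Gata4, chr14:63231200-63231350: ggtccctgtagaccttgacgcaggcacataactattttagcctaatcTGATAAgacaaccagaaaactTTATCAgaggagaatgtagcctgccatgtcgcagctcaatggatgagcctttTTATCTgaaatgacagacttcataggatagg
Gained, near Sall1, chr8:88927738-88927888: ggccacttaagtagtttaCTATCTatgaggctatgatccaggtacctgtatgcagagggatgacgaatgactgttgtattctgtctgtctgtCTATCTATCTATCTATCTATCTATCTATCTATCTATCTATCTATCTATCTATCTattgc
Gained, near Dynlrb2, chr8:116309788-116309938: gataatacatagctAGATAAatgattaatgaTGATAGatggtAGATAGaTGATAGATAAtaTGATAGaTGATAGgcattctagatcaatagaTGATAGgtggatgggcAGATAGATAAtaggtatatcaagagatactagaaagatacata
Gained, near Fgf4, chr7:144852581-144852731: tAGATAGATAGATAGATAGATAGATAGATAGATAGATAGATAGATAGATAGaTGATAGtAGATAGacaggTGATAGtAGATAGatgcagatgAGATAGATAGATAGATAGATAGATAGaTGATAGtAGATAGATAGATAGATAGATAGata
The windows of the strongest kept and lost regions held between 0 and 3 GATA words, whereas 3 of the 4 gained windows shown were built largely of repeated ones, 14 in the window near Sall1, 10 near Dynlrb2 and 28 near Fgf4. These 4 windows were a selection. Of other gained windows, those near Pdgfra, Gata3 and Tead4 held 3, 2 and 0 GATA words, and that near Eomes 21. Tandem runs, described below, lay in 15.5% of all gained regions.

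The 4 lists differed in length before any region was formed. NANOG had 52285 and 26742 peaks at 2 h (replicates 1 and 2) and 14911 and 14528 at 4 h, a difference of −1.35 in mean log2 peak number. Both 4 h lists were shorter than both 2 h lists, but the 2 lists at 2 h differed from each other by more than the 2 at 4 h, and a two-sided exact permutation test of 2 lists against 2 cannot give a p below the 0.33 that it gave. The 4 h libraries were also shallower. The fragments per base that the peak caller took as background, recovered from the fold and p columns, came to 1.31 and 1.22 for the 2 h libraries and to 0.865 and 0.935 for the 4 h libraries. When all lists were scaled to the lowest of these coverages, 43894, 24253, 14911 and 14405 peaks were left.

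The 4 h peaks were found more often in the 2 h lists than in the other 4 h list. The 2 h lists were also the longer ones, and these shares were not computed at equal list length. Of the 4 h peaks, 46.8% (list 1) and 47.7% (list 2) lay under a peak of the other 4 h list, whereas 70.3% and 69.5% lay under a peak of 2 h list 1 and 58.5% and 58.5% under one of the shorter 2 h list 2. In the other direction, 19.8% and 19.2% of the peaks of 2 h list 1 met a peak of 4 h list 1 or list 2, as did 32.2% and 31.6% of the peaks of 2 h list 2. The majority of each 4 h list thus lay under a peak of either 2 h list. The 2 h lists shared 36.9% (list 1) and 72.1% (list 2) of their peaks with each other.

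Of the 19090 regions at 2 h, 5874 were kept, or 30.8% (95% Wilson interval 30.1 to 31.4%, counting error only). In 8485 regions, 44.4% of the total, neither 4 h list had a peak. The remaining 4731 regions (24.8%) had lost their 4 h region but still met a peak, in 1 of the 4 h lists for 4628 of them. Of the 6910 regions at 4 h, 1000 were gained, or 14.5% (13.7 to 15.3%), and 303 of these had no peak in either 2 h list. Of the other gained regions, 623 met a peak of the long 2 h list 1 and 85 one of list 2. The 13216 lost regions thus outnumbered the 1000 gained ones.

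**Figure D1:**
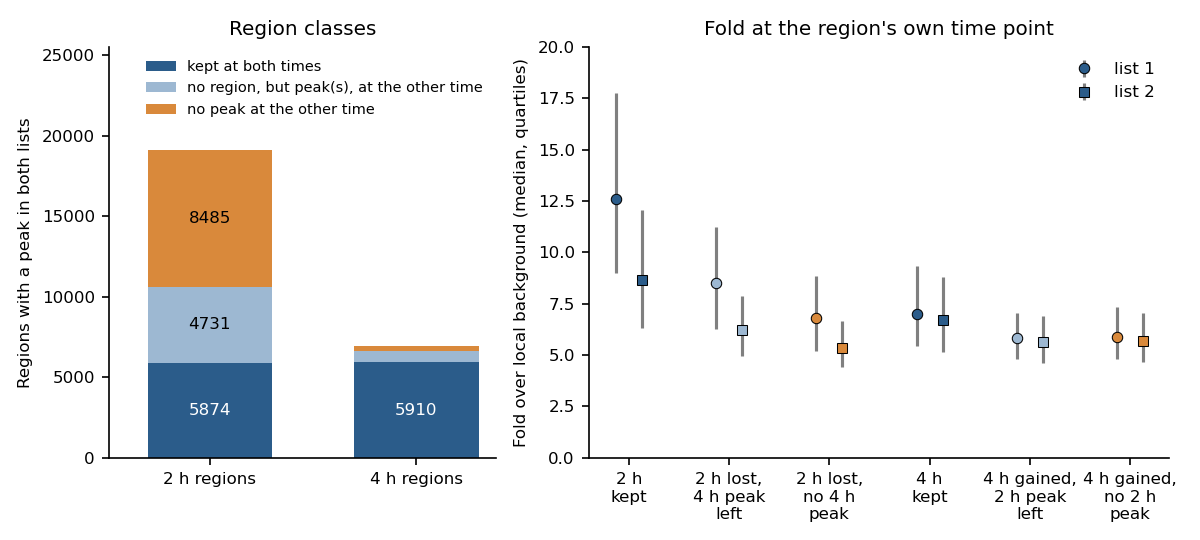
Left, number of NANOG regions (merged regions with a peak in both lists) at 2 h and 4 h, divided by what was found at the other time point. Right, fold over local background of each class at its own time point, as the median (circle, list 1; square, list 2) with quartiles (bars). Kept regions had the highest 2 h folds, with medians of 12.6 and 8.64.

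The size of these shares depended on list length. With the same number of peaks, 14528, in every list, 49.1% of 2 h regions were kept and 28.5% of 4 h regions were gained. With 2 h list 1 alone 12.5% were kept and 5.53% of 4 h regions gained, with 2 h list 2 alone 22.5% and 13.4%, and with a single 4 h list 42.9 to 43.9% and 42.6 to 42.8%. After depth matching the shares were 32.4% and 15.7%.

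Kept regions had higher folds and larger widths at 2 h than lost ones. To be kept, a region needed a called peak in both of the shallower 4 h libraries. How far the calling threshold set these differences was not tested. Their median 2 h fold over local background was 12.6 in list 1 and 8.64 in list 2, against 7.34 and 5.53 in lost regions. Among lost regions, those that still met a 4 h peak had medians of 8.49 and 6.20 and those that met none 6.78 and 5.35. Median width at 2 h was 605 bp for kept and 412 bp for lost regions. Gained regions were weaker and narrower than kept ones at 4 h as well. Their median 4 h fold was 5.90 and 5.69 in the 2 lists, against 6.97 and 6.72 for kept regions, and their median width was 331 bp against 414 bp.

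The share kept grew in steps with 2 h fold. Divided into quintiles (5 groups of equal size, 3818 regions each) by mean fold, 8.51% of the weakest quintile were kept, then 12.8%, 20.9%, 38.0% and 73.6% of the strongest. A peak in 4 h list 1 alone was found in 18.4% of the weakest and 83.9% of the strongest quintile, and in list 2 alone in 19.2% and 81.1%, so that both lists gave the same order. Regions without any 4 h peak made up 71.1% of the weakest and 8.98% of the strongest quintile. At 4 h the mirror image was seen for gain, with 24.5% of the weakest and 3.33% of the strongest quintile of 4 h regions being gained. The part of the calling threshold in both orders was not tested.

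**Figure D2:**
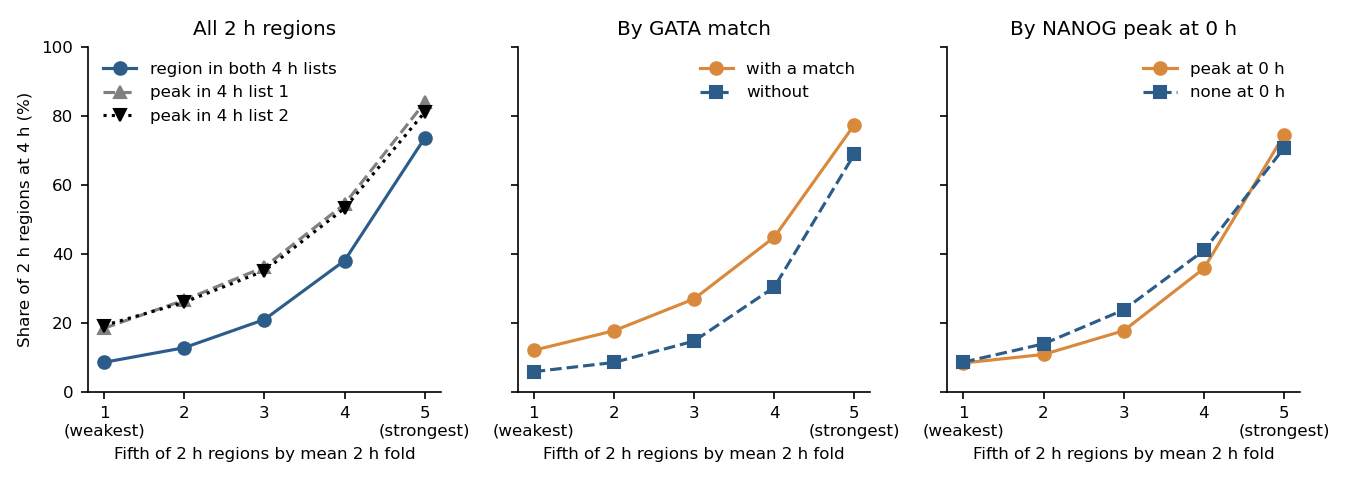
Share of 2 h NANOG regions found at 4 h (y axis, %) by quintile of mean 2 h fold (x axis), for all regions (left, also with a peak in each single 4 h list), for regions with and without a GATA word within 100 bp of the summit (middle) and for regions with and without a NANOG peak at 0 h (right). The share ran from 8.51% to 73.6%, the GATA curves stayed apart in all 5 quintiles, and the 0 h curves crossed.

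Most binding was distal at both times. Promoters, taken as summits within 1000 bp of a protein-coding transcription start site (TSS), held 7.93% of kept, 10.9% of lost and 10.3% of gained regions. The promoter difference between kept and lost regions was smaller in single lists. It was −0.669 percentage points without 4 h list 1 and −1.35 without 4 h list 2, and it turned for peaks of 2 h list 1 set against 4 h list 2, where 10.7% of those found again and 10.5% of the others lay at promoters. Introns held 45.1%, 46.0% and 43.0%, intergenic DNA 44.9%, 40.3% and 45.1%, and exons outside promoters 2.06%, 2.79% and 1.60%. The median distance to the nearest TSS was 32504.5 bp for kept, 26032 bp for lost and 31606.5 bp for gained regions. Promoter regions were weak at 2 h, with 689 of 1905 in the weakest and 145 in the strongest quintile by fold. Over all regions 24.5% of promoter and 31.5% of other regions were kept, but within quintiles of fold the promoter regions were kept as often or more often, with 8.56% against 8.50%, 15.3% against 12.4%, 28.4% against 20.2%, 48.7% against 37.2% and 75.2% against 73.6%.

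Binding before induction was then set against the classes. A NANOG peak at 0 h was found in 47.3% (0 h list 1) and 57.2% (list 2) of kept regions, in 27.6% and 39.5% of lost regions and in 3.10% and 7.0% of gained regions. The 0 h lists were shorter than the 2 h lists, with 10693 and 16180 peaks, and the 0 h cells stood in maintenance medium. A region without a 0 h peak may lie below the calling threshold. Taken over all 2 h regions, 37.8% of the 9262 regions with a peak in either 0 h list were kept, against 24.1% of the 9828 regions without one. Within quintiles of 2 h fold this order did not hold. The share kept was 8.33% against 8.58% in the weakest quintile, 10.8% against 13.9%, 17.7% against 23.7% and 35.8% against 41.0% in the next ones, and 74.5% against 70.7% in the strongest. Regions bound before induction were therefore kept more often when pooled, and less often than regions of like strength in 4 of the 5 quintiles. The weakest of these 4 differed little, with 1009 regions bound at 0 h and 2809 not. Single 4 h lists were not examined within quintiles. At 8 h, where the lists were short, 20.3% and 16.0% of kept, 2.14% and 1.37% of lost and 4.70% and 3.2% of gained regions held a NANOG peak.

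SOX2 peaks went with keeping. At 4 h a SOX2 peak lay in 95.2% (SOX2 list 1) and 86.9% (list 2) of kept regions, in 72.1% and 50.1% of lost regions and in 64.9% and 41.7% of lost regions without any 4 h NANOG peak. Regions with a SOX2 region at 4 h were kept more often in every quintile of fold, from 15.0% against 4.56% in the weakest to 78.1% against 40.2% in the strongest. Gained regions held a SOX2 peak at 4 h in 70.6% and 48.2% of cases but at 2 h in 20.1% and 38.6%, whereas kept regions had SOX2 at 2 h in 80.7% and 91.7%.

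GATA6 peaks covered nearly all NANOG regions. At 2 h GATA6 lay in 99.7% and 98.9% of kept, 91.9% and 84.0% of lost and 96.3% and 89.7% of gained regions. Of the 2377 regions at 2 h without a GATA6 region, 3.11% were kept, against 34.7% of the 16713 with one. This held in each quintile, from 1.39% against 10.8% to 12.5% against 74.4%, although the strongest quintile had 48 regions without GATA6.

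For GATA6 at 4 h the record and the peak names disagreed, since the lists recorded for 4 h carry peak names of the 48 h samples and the lists whose names carry 4 h are recorded for 8 h. By the peak names, GATA6 at 4 h lay in 96.0% and 98.0% of kept, 66.2% and 72.2% of lost and 91.0% and 93.2% of gained regions. By the record, the values were 17.8% and 20.9%, 4.53% and 6.30%, and 14.0% and 17.5%. In both readings kept and gained regions had more GATA6 peaks than lost ones, in each list.

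**Figure D3:**
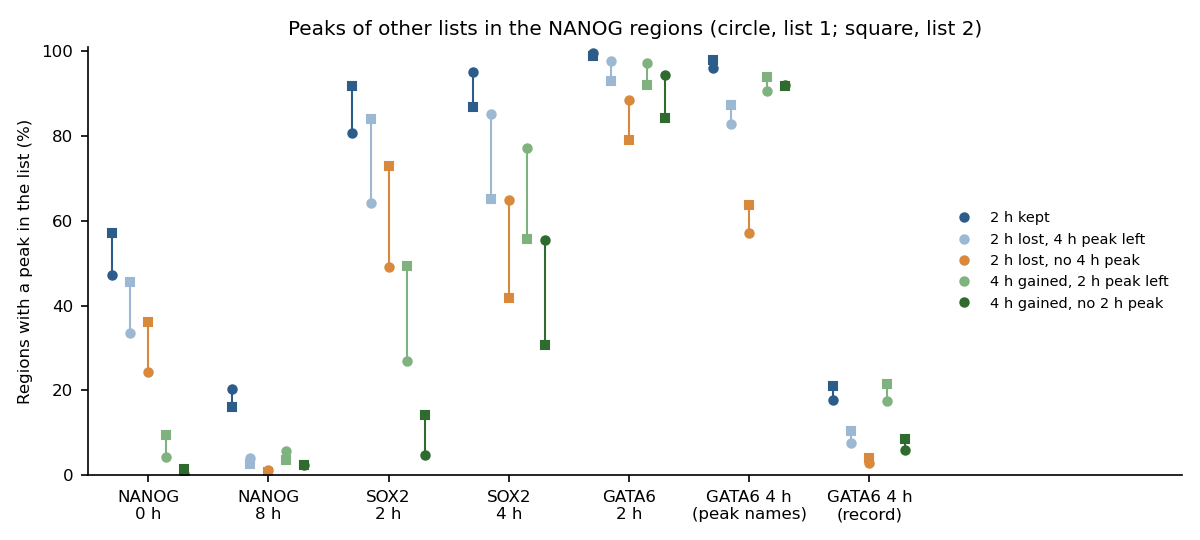
Share of NANOG regions of each class (y axis, %) that held a peak of the list named on the x axis, with a circle for list 1 and a square for list 2. Gained regions were nearly free of NANOG peaks at 0 h and held GATA6 peaks at 2 h in 96.3% and 89.7% of cases.

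The share of regions with a GATA word differed between the classes. Within 100 bp of the summit, 60.8% of kept regions, 45.0% of lost regions and 75.5% of gained regions held at least 1 GATA word, compared with 49.8% of all 2 h and 63.9% of all 4 h regions and 29.8% of 32851 RefSeq promoter windows, which were longer than the 201 bp searched here. The share was 42.2% in lost regions without a 4 h peak and 81.2% in gained regions without a 2 h peak. In every quintile of 2 h fold, regions with a GATA word were kept more often than regions without, from 12.0% against 5.81% in the weakest to 77.5% against 69.0% in the strongest. Single lists gave the same order. In the 4 pairings of a 2 h with a 4 h list, 55.6 to 59.3% of peaks found again and 38.1 to 39.6% of peaks not found again held a GATA word.

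Other words were searched in the same windows. The AP-1 word TGANTCA was found in 14.5% of kept, 21.4% of lost and 7.10% of gained regions. The SOX word was found in 23.4%, 20.1% and 13.6%, the octamer in 4.15%, 5.21% and 2.30%, the NANOG word TAATGG in 11.4%, 10.1% and 9.30%, and the ESRRB word AAGGTCA in 9.16%, 8.37% and 4.80%. The TEAD word GGAATG stood at 19%, 18.2% and 12.9%, and the KLF word GGGNGNGGC at 12.9%, 13.8% and 12.0%. Single lists changed some of these differences. In the 4 pairings of a 2 h with a 4 h list, the octamer was found in 4.14 to 4.28% of peaks found again and 3.65 to 3.72% of the others, and the KLF word in 13.5 to 14.7% and 11.7 to 11.8%, so that both turned in direction. The AP-1 word was found in 14.4 to 15.0% and 16.2 to 16.8%, a smaller difference than in the regions. A match says that the letters are present and not that the factor was bound.

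**Figure D4:**
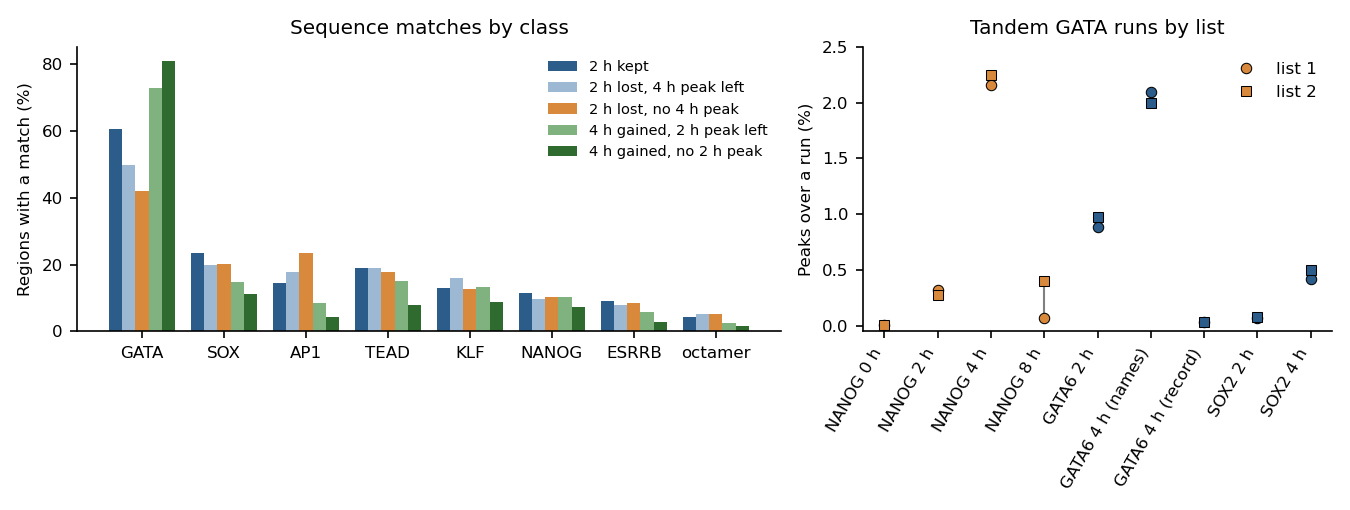
Left, share of regions of each class with a match to each word within 100 bp of the summit. Right, share of the peaks of each list that lay over a tandem run of GATA (circle, list 1; square, list 2). The 4 h NANOG lists had 2.16% and 2.25% of peaks over such runs, against 0.323% and 0.277% at 2 h.

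Tandem GATA repeats, seen in the printed sequences, were common among gained regions. At least 5 head-to-tail copies of GATA, on either strand, lay within 100 bp of the summit in 155 of the 1000 gained regions (15.5%) and in 88 of the 303 gained regions without a 2 h peak (29.0%). They lay in 54 of 5874 kept regions (0.919%), in 8 of 13216 lost regions (0.0605%) and in none of the 8485 lost regions without a 4 h peak. In single lists, 1 of 10693 and 1 of 16180 NANOG peaks lay over such a run at 0 h, 169 (0.323%) and 74 (0.277%) at 2 h, 322 (2.16%) and 327 (2.25%) at 4 h, and 4 and 9 at 8 h. Both 4 h lists therefore stood above all other NANOG lists, and in absolute number as well although they were shorter than the 2 h lists.

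The same repeats were present in the GATA6 and SOX2 lists. Of GATA6 peaks at 2 h, 0.883% and 0.978% lay over a run, by the peak names 2.09% and 1.99% at 4 h, and by the record 0.0337% and 0.0307%. The SOX2 lists of 2 h had 0.0706% and 0.0780% of peaks there, and those of 4 h 0.417% and 0.504%. All 225 of the 4 h NANOG regions over a run held a GATA6 peak in both lists named 4 h, but 1 and 3 of them in the lists recorded for 4 h. They held one in 223 and 218 cases in the GATA6 2 h lists, and a NANOG peak in 4 and 7 cases in the 0 h lists. The windows of gained regions without a 2 h peak were mostly soft-masked repeat DNA in 37.6% of cases, against 17.7% in kept and 14.3% in lost regions, and how reads were placed in such repeats was not tested. Without any region over a run, 12.6% of 4 h regions were gained, and 71.0% of these held a GATA word, against 60.4% of kept and 45.0% of lost regions.

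Within kept regions, folds at 4 h were mostly lower than at 2 h. The median log2 ratio of 4 h over 2 h was −0.84 and −0.90 against 2 h list 1 (4 h lists 1 and 2) and −0.30 and −0.38 against 2 h list 2. As pileup over the background coverage of each library, which takes the depth into account, the ratios were −0.67, −0.77, −0.13 and −0.25. Both 4 h folds lay below both 2 h folds in 3406 of 5874 kept regions (58.0%), both lay above in 231 (3.93%), and in 2237 the 2 time points overlapped. These counts used the fold without correction for depth. By pileup over background coverage, 4 h lists 1 and 2 were lower than 2 h list 1 in 84.8% and 88.0% of kept regions. Against 2 h list 2 they were lower in 58.8% and 66.0%. Widths were smaller at 4 h in 85.5% of kept regions, and the summits of both times lay within 100 bp of each other in 75.5% of them, with a median shift of 49 bp.

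The kept regions that were higher at 4 h were unlike those that were lower. Of the 231 regions with both folds higher, 7.79% had NANOG in either 0 h list and 79.2% a GATA word. Of the 3406 regions with both folds lower, 73.8% had NANOG at 0 h and 55.0% a GATA word. The SOX word was found in 11.3% of the former and 25.5% of the latter, and the AP-1 word in 6.06% and 17%. These groups were formed on the folds themselves, without correction for depth. The sequence and 0 h values of the 231 regions lay near those of gained regions, of which 7.50% had NANOG in either 0 h list.

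The strongest regions of each class are described next, with folds given as replicate 1 and replicate 2. The region of highest mean fold lay 2130 bp upstream of the TSS of Mrps23, a mitochondrial ribosome gene, at chr11:88201738-88202525 in intergenic DNA. It had folds of 74.8 and 56.8 at 2 h and 30.5 and 34.0 at 4 h, with 25.3 and 33.8 at 0 h, so that it was highest at 2 h in both lists. A region at chr5:53466498-53467992, within the gene record of Rbpj, the DNA-binding factor of Notch signaling, and 88636 bp upstream of the nearest TSS, went from 76.5 and 47.7 to 29.5 and 32.6. The next kept regions lay in an intron of Car8 (61.8 and 40.9, then 32.7 and 21.2), 237200 bp upstream of Mpped2 (57.5 and 41.4, then 32.7 and 19.6) and 9459 bp upstream of Pla2g7 (62.2 and 35.5, then 23.7 and 23.8). In all 5, both 4 h folds lay below both 2 h folds, an order that their choice by 2 h fold favors.

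The strongest regions without any 4 h peak had lower 2 h folds than these. The first lay in an intron of Foxp1, a forkhead TF gene, at chr6:99013385-99014548, with folds of 26.8 and 20.2 at 2 h and 8.94 and 9.68 at 0 h. The others lay 110329 bp upstream of C130060K24Rik (29.8 and 16.2), 70032 bp downstream of the TSS of Mbip (28.1 and 12.6), 10415 bp upstream of Cd83 (23.8 and 14.7) and in an intron of Tbc1d1 (24.2 and 13.6). Of these 5 regions, 4 had a NANOG peak in both 0 h lists, the exception being Tbc1d1. They were chosen for a high 2 h fold, and 20.2% of all lost regions without a 4 h peak had NANOG in both 0 h lists, against 30.1% of all 2 h regions.

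The strongest gained regions without any 2 h peak had lower folds still. The region 116349 bp downstream of the TSS of Sall1, a zinc-finger TF gene, at chr8:88927544-88928094 had folds of 11.8 and 15.0 at 4 h. The others lay 195111 bp upstream of Dynlrb2 (9.08 and 16.4), in an intron of Sh3gl3 (12.9 and 12.4), in an intron of Rufy4 (10.7 and 13.4) and 25011 bp upstream of Sh3bp4 (14.4 and 8.70). None of these 5 had a NANOG peak in a 0 h list, all had a GATA6 peak at 2 h, and their 201 bp windows held 8 to 22 GATA words each. Of all 303 gained regions without a 2 h peak, 1.32% had NANOG in either 0 h list and 94.7% GATA6 in either 2 h list. The shares over all 4 h regions were 51.8% and 99.5%. At least 5 GATA words lay in 41.3% of the 303 and in 5.31% of all 4 h regions.

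NANOG regions were then tied to genes by the nearest protein-coding TSS within 50 kb, which covered 12182 regions at 2 h and 6700 genes. Of these regions 29.1% were kept, the value against which gene lists are read. At 4 h 3069 genes had a region, 3880 genes had one at 2 h but not at 4 h, and 249 genes had one at 4 h but not at 2 h. The genes with most lost regions were Arid5b (18 of 21 regions lost), Etl4 (12 of 19) and Esrrb (11 of 14), an orphan nuclear receptor of the naive network. The genes with most kept regions were Etl4 (7 of 19), Chn2 (6 of 11) and Lamc1 (6 of 10), which encodes a laminin chain of the basement membrane that PrE lays down, and Zfp704 also had 6 of 10.

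In the share kept, the Epi and PrE networks of the study lay close to the background. Regions near Epi network genes were kept in 159 of 507 cases (31.4%) and those near PrE network genes in 206 of 629 (32.8%), against 29.1% of all gene-associated regions. Per single 4 h list, 46.4% and 47.3% of Epi and 45.5% and 44.8% of PrE regions met a peak, against 42.7% and 41.6% of all. A NANOG peak at 0 h was found in 62.3% of Epi and 40.4% of PrE regions, against 47.6% of all gene-associated 2 h regions. Of the 4 h regions near their genes 11 of 172 (6.40%) and 34 of 240 (14.2%) were gained, against 14.1% of all.

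Among 20 naive pluripotency genes, 19 had a 2 h region within 50 kb. Of their 81 regions 25 were kept (30.9%, Wilson interval 21.9 to 41.6%), 30 met no 4 h peak, and 1 of 25 regions at 4 h was gained. Genes of the list differed widely. None of the 6 regions of Tfcp2l1, the 5 of Klf2, the 3 of Fgf4 or the 2 of Klf4 was kept, whereas 5 of 7 were kept near Klf5 and both near Zfp42 (also called Rex1). Near Nanog itself 1 of 3 regions was kept, near Pou5f1, which encodes OCT4, 1 of 3, near Sox2 1 of 4, near Tbx3 3 of 10, near Prdm14 1 of 3, near Nr0b1 2 of 3, near Sall4 1 of 4, near Tdgf1 the 1 region, and near Dppa3, Tcl1 and Utf1 none of 1 each. Nr5a2 had no region.

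The strongest region near Nanog, 4860 bp upstream of its TSS at chr6:122702140-122703230, had folds of 19.8 and 17.6 at 2 h and 14.9 and 9.16 at 4 h, so that both 4 h values were below both 2 h values. The strongest near Sox2, 3997 bp upstream at chr3:34646233-34646537, had 15.0 and 7.84 at 2 h and no 4 h peak. Near Pou5f1, 1931 bp upstream of the TSS, the folds were 12.3 and 7.80, then 7.32 and 4.41. In Klf4 a region with 11.2 and 7.05 at 2 h had a peak of 6.43 in 4 h list 1 and none in list 2. The strongest kept regions of the naive list were those in an intron of Esrrb (30.3 and 16.3, then 9.15 and 10.0), in an intron of Tbx3, a T-box TF gene (24.2 and 22.0, then 9.12 and 6.72), and 42037 bp downstream of the TSS of Prdm14 (17.7 and 19.8, then 9.65 and 8.27). In each of these kept regions, also chosen by 2 h fold, both 4 h folds lay below both 2 h folds. The strongest strictly lost ones lay 22742 bp upstream of an Esrrb TSS (13.8 and 13.5) and 2360 bp upstream of Tfcp2l1 (17.3 and 5.60). The gained region of this list lay within the gene record of Fgf4, 8730 bp upstream of the nearest TSS, over a long tandem GATA run. Its folds were 6.28 and 4.26.

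Of the short lists, which were chosen with earlier results of these data known, the PrE list had the highest share kept. The larger PrE network of the study lay near the background, with 206 of 629 regions kept (32.8%, Wilson interval 29.2 to 36.5%). The short PrE list held PrE regulators together with matrix and endocytic receptor genes, such as Lamc1, Lama1, Sparc and Lrp2. Of 20 genes, 12 had a 2 h region, and 17 of their 31 regions were kept (54.8%, Wilson interval 37.8 to 70.8%), against 29.1% of gene-associated regions. Single 4 h lists held a peak in 64.5% and 58.1% of them. Lamc1 gave 10 of the 31 regions, and without it 11 of 21 were kept (52.4%, 32.4 to 71.7%). Both regions of Gata4 were kept, 2 of 3 of Gata6, 2 of 4 of Pdgfra, which encodes a PrE surface receptor, 2 of 3 of Lrp2, 1 of 3 of Lama1, and the single region of Col4a2. The single regions of Sox7, Foxa2, Col4a1 and Sparc were lost. Sox17, Sox18, Hnf4a, Foxq1, Dab2, Cubn, Amn and Lamb1 had no region.

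Near Lamc1 the strongest region, at chr1:153376337-153377254 in intergenic DNA, had folds of 32.8 and 17.1 at 2 h, 17 and 13.2 at 4 h, and 6.65 and 8.06 at 0 h, so that the highest 4 h value was close to the lowest 2 h value. The strongest kept region of Lrp2, which encodes an endocytic receptor, had 13.4 and 10.8 at 2 h and 8.04 and 11.4 at 4 h, which overlap, and no peak at 0 h. A gained region in an intron of Gata4, a TF gene acting after GATA6, at chr14:63231119-63231574 had 6.17 and 6.43 at 4 h, 8.91 in 2 h list 1 and no peak in 2 h list 2. A gained region near Pdgfra had 3.69 and 2.99 at 4 h and 5.53 in 2 h list 1. Both of these were gained by the rule although 1 of the 2 h lists had a higher fold there.

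**Figure D5:**
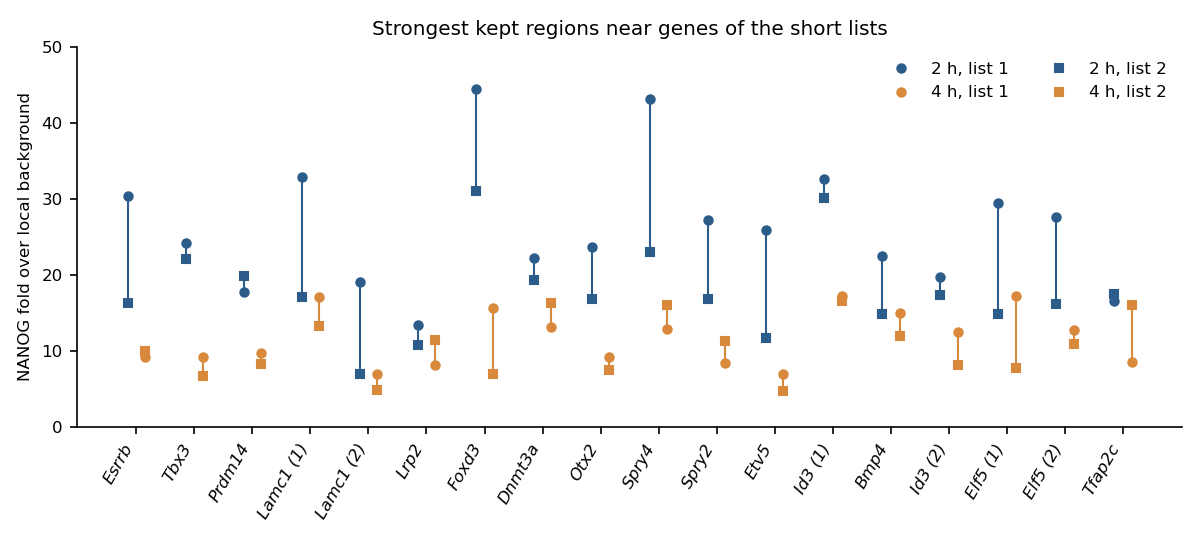
NANOG fold over local background (y axis) in each list at the 3 strongest kept regions of each short gene list (x axis, by nearest gene; numbers in brackets count regions of 1 gene, and genes on more than 1 list are drawn once). Circles are list 1 and squares list 2, at 2 h (blue) and 4 h (orange). Foxd3 and Spry4 had the highest 2 h folds of list 1, 44.5 and 43.2, and the 2 times overlapped at Lrp2, Bmp4 and 1 of the Elf5 regions.

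Of 17 formative and primed genes, 10 had a 2 h region, and 13 of 29 regions were kept (44.8%, 28.4 to 62.5%). Near Foxd3, a forkhead TF gene, 2 of 5 regions were kept, the strongest with folds of 44.5 and 31.0, then 15.6 and 6.88. Near Otx2, a homeobox TF gene of the primed epiblast, 2 of 6 were kept, the strongest with 23.6 and 16.9, then 9.09 and 7.46, while a region 145 bp upstream of an Otx2 TSS with 17.6 and 14.8 at 2 h had no 4 h peak. The region near Dnmt3a, a DNA methyltransferase gene, had 22.2 and 19.3, then 13.2 and 16.2, with no peak at 0 h. Etv5 had 5 of 8 regions kept, Sox11 1 of 2, Lefty2 1 of 2, Nodal its single region, and Lef1 (2 regions), Etv4 and Lefty1 (1 each) none. Fgf5, Dnmt3b, Pou3f1, Zic2, Sall2, Tcf15 and Sox3 had no region.

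In FGF signaling, the pathway that pushes inner cell mass cells toward PrE, 15 of 19 genes had a region and 15 of 48 regions were kept (31.2%, 19.9 to 45.3%). Counts for single feedback inhibitors were small. Spry2 kept 3 of 5 regions and Spry4 2 of 10, while Spred2 kept none of 4, all of them without a 4 h peak. The strongest Spry4 region had folds of 43.2 and 22.9, then 12.9 and 16.0, and the strongest Spry2 region 27.2 and 16.8, then 8.31 and 11.3. The strongest Etv5 region went from 25.9 and 11.7 to 6.97 and 4.65. A region at the 5′ end of Etv4, 16 bp upstream of a TSS, had 7.35 and 7.65 at 2 h and no 4 h peak. Near the ligand gene Fgf4 none of 3 regions was kept, and near the receptors Fgfr1 and Fgfr2 none of 2 each, while the single region of Fgfr3 was. Dusp6 kept 1 of 4, Frs2 2 of 3, Spred1 its 1 region, and Grb2 (2), Spry1 and Dusp4 (1 each) none.

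For WNT and BMP genes, 11 of 16 had a region and 8 of 29 regions were kept (27.6%, 14.7 to 45.7%). Both regions of Id3, a BMP-responsive inhibitor of differentiation, were kept, the stronger with folds of 32.6 and 30.2, then 17.2 and 16.6. None of the 6 regions of Tcf7l1, a WNT-pathway repressor, and none of the 3 of Sp5 was kept. Bmp4 kept 1 of 2, with 22.5 and 14.9, then 15.0 and 11.9. Smad7 kept 2 of 4, Axin2 1 of 3, Id2 and Smad6 1 of 2 each, and Bmpr1a (2 regions) and Id1 (1) none. Of 12 trophectoderm genes, 5 had a 2 h region and 8 of 22 regions were kept (36.4%, 19.7 to 57.0%), 4 of 7 near Elf5, 2 of 4 near Tfap2c, 2 of 5 near Tead4, and none of the 4 near Krt8 or the 2 near Gata2. Of 11 regions at 4 h, 3 were gained, near Gata3 (8.58 and 6.72), Eomes (8.04 and 5.69, over a tandem GATA run) and Tead4 (4.08 and 3.69). The Gata3 and Eomes regions had a peak in 2 h list 2 alone, of 5.85 and 4.95. Regions near 1 gene are not independent of each other, so the intervals of all these lists cover counting error only and are no test.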

How the data were processed

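CUT&RUN libraries were sequenced paired-end. As described in its methods, the authors mapped reads to mm10 (GRCm38) with Bowtie2, removed blacklisted reads, kept duplicates and called narrow peaks with MACS for each library against a rabbit anti-rabbit control (SAMtools and Picard also stand in the submitters' processing notes). The deposited lists give, per peak, the fold over local background (a ratio) and the −log10 p-value and q-value, all q at or below 0.05. They hold no read totals, so depth was taken from the background coverage, recovered from the fold and −log10 p.

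Regions were merged peaks with 1 bp overlap present in both lists of a time point, placed by summit on GENCODE protein-coding TSSs (promoter within 1000 bp, genes within 50 kb) and searched on both strands, 100 bp each side of the summit, in python 3.11.15 with numpy 2.4.6, pandas 2.3.3, scipy 1.17.1 and pysam 0.24.0, with matplotlib 3.10.9 for plots. Genes and regions were named by fixed rules, namely the 5 regions of highest mean fold per class and the strongest 3 per class near short-list genes, with those near Nanog, Sox2, Pou5f1, Esrrb and Klf4 as checks. Members and lists were chosen with earlier results of these data known. The region calls and the recovery of pileups from fold and −log10 p were tested on simulated data. The background coverage estimate itself was not. Two-sided exact permutation tests compared list values. Alternatives were a stricter q, equal list lengths, overlap of 50%, other windows, single lists and a replicate block, and, chosen after seeing the data, depth matching and leaving out tandem GATA runs. Samples without a NANOG, GATA6 or SOX2 list named in the text were not used here. Counts of some single genes are not reported here.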

Additional observations from a re-analysis of the deposited data

How the results depend on the processing

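Of 164 alternative values over 16 results, 107 were counted as the same, 56 as moved, 1 lost its direction and 0 reversed. Pairings of 1 single 2 h list with 1 single 4 h list were not among these values. In 1 such pairing the promoter difference turned in direction, as given above. Region counts were judged by their ratio to the main value and log2 peak number by its direction only. The other values counted as the same when they lay within the standard deviation of the runs with 1 list per time point. Such runs could lie far from the main value, as for GATA6 at 2 h, kept minus lost, with 46.6 and 36.3 against 16.2. With −log10 q of at least 5, 4 h regions numbered 3979, and the differences in percentage points, kept minus lost, were −3.80 for promoters, 10.3 for NANOG at 0 h and 32.6 for SOX2 at 4 h. With 14528 peaks in every list there were 9856 regions at 2 h, 49.1% kept, 25.2% without a 4 h peak and 28.5% of 4 h regions gained, by construction a difference of 0 in log2 peak number, −0.812 for promoters, 8.49 for GATA6 at 2 h, 7.29 for NANOG at 0 h, 28.7 for SOX2 at 4 h, 13.2 for GATA words, and 48.8% of Epi and 53.2% of PrE network regions kept. The promoter difference was −2.48 with depth matched and −4.62 with 5000 bp, the GATA6 difference 34.6 with the 4 h lists by peak names, and the GATA word difference 12.1 in a 50 bp window. Leaving out 1 list gave 19090 to 52285 regions at 2 h and 6910 to 14911 at 4 h, 12.5 to 43.9% kept, 56.1 to 73.6% of 2 h regions without a 4 h peak, 5.53 to 42.8% gained, −1.83 to −0.86 in log2 peak number, 3.11 to 6.81 in median fold, 153 to 302 bp in width, −3.43 to −0.669 for promoters, 16.5 to 47.3 for GATA6, 14.4 to 34.3 for NANOG at 0 h, 35.7 to 60.2 for SOX2, 12.7 to 22.2 for GATA words, −0.80 to −0.31 in log2 fold ratio, and 14.7 to 47.3% of Epi and 15.0 to 45.5% of PrE network regions kept. The cause was not tested. Same-numbered lists shared only a number (correlation of deviations 0.0443), and with the replicate block the log2 peak number difference was −1.35 with an exact permutation p of 0.5, the smallest that 2 pairs allow. A region without a peak may lie below the calling threshold, which was not tested.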
